A study of Mus musculus with 2 samples.

Results

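The S100 calcium-binding proteins were followed in RNA from newborn mouse heart through 10 genes, S100a1, S100a4, S100a6, S100a8, S100a9, S100a10, S100a11, S100a13, S100a16 and S100b. The members were the rows of both gene tables whose identifiers map in mouse GENCODE to these symbols, and all 10 were found among 43346 mouse genes. For each of 2 libraries, the input was 13 pg of RNA over 200 nt long, the amount the labels equate with 1 cell, taken from the whole heart of a B6NCrl mouse at postnatal day 0. Replicate 1 came from pup 1 and replicate 2 from pup 3, and both carry the same donor identifier. The libraries form 1 group with no treatment, no genotype change and no control, so no test was possible, and a difference between them joins 2 hearts, 2 samples of RNA and 2 amplifications. Levels are TPM, transcripts per 1000000 scaled over mouse genes, which corrects for transcript length, and errors are SDs over the 2 libraries.

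S100 proteins are small calcium sensors built around a pair of EF-hand motifs, a helix-loop-helix fold that grips calcium. Most work as dimers that open on binding calcium and then clasp a target protein, and S100A10 is the exception that has lost calcium binding and keeps the open shape without it. In the heart, S100A1 is the myocyte member, known for raising calcium uptake and release by the sarcoplasmic reticulum. S100A4, S100A6, S100A10, S100A11, S100A13 and S100A16 are made by fibroblasts, vessels and many other cells, S100A8 and S100A9 pair as calprotectin in neutrophils and monocytes, and S100B is best known from glia. S100A4 is also made by leukocytes, so the classes used here, which come from textbook knowledge, are not exclusive.

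Most of the family sits together in the mouse genome. On mm10, 9 of the 10 genes lie on chromosome 3 and S100b lies on chromosome 10 (76253853 to 76261159, plus strand). The stretch from S100a1 to S100a9, chromosome 3 from 90511034 to 90695721, spans 185 kb, and all 12 of its protein-coding genes are S100 genes. S100a11 (93520488 to 93526287) and S100a10 (93555080 to 93564643), both on the plus strand, lie 2825 kb further on. S100a1 (90511034 to 90514392, minus strand) and S100a13 (90514435 to 90524581, plus strand) stand head to head, with 42 bases between the GENCODE gene models. Their RefSeq promoter windows, each running from 250 bases before to 50 bases after the start, are shown because they share 204 bases, which are printed in capitals. The windows are chr3:90514281-90514580 on the minus strand for S100a1 and chr3:90514185-90514484 on the plus strand for S100a13, on GRCm38.p6, and each is written 5′ to 3′ on its gene's strand, so the capitals of one are the reverse complement of the other's.
S100a1: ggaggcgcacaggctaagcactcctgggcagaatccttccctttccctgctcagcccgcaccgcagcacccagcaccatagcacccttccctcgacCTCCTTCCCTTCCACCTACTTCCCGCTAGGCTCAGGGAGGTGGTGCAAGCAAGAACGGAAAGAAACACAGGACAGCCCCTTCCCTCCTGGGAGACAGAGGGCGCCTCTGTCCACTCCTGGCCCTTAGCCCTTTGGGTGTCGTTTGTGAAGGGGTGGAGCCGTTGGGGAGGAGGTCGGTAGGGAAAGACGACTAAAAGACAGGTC
S100a13: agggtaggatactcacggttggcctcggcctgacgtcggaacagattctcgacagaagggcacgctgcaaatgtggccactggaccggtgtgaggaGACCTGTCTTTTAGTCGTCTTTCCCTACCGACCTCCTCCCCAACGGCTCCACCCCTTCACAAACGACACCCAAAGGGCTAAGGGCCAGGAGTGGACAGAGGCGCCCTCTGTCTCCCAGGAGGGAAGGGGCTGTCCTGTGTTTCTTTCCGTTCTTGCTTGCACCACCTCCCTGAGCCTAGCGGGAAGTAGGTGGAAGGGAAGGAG

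The windows of S100a4, S100a8 and S100a9 are shown because each holds the motif TATAAA, the core of a TATA box, on the gene's strand. They are chr3:90603520-90603819 on the plus strand for S100a4, chr3:90668821-90669120 on the plus strand for S100a8 and chr3:90695672-90695971 on the minus strand for S100a9, again from RefSeq on GRCm38.p6, and the motif is in capitals.
S100a4: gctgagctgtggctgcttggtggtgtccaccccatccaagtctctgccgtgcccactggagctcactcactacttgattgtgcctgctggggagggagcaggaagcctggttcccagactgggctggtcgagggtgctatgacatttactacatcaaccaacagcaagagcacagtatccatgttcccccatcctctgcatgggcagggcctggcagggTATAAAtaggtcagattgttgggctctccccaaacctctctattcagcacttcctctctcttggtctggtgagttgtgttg
S100a8: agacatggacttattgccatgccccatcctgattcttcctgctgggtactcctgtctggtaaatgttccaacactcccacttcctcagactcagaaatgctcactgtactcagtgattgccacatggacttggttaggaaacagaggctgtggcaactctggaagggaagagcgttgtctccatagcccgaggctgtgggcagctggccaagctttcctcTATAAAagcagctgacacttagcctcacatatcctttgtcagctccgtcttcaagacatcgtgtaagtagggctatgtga
S100a9: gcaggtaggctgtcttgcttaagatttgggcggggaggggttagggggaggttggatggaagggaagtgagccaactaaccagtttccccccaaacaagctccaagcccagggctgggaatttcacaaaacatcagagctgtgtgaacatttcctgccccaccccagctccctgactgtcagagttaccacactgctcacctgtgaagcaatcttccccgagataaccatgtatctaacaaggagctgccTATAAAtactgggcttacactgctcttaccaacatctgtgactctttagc

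The motif began at base 220 of the S100a4 window, at base 221 for S100a8 and at base 251, the annotated start itself, for S100a9. Windows were on hand for 9 members, and the motif was in those of 3 of them, while 13.6% of 32851 windows over all genes held it on either strand. The window of S100a11 held 15 CpG dinucleotides, that of S100a13 held 14 and that of S100a1 held 11, against 2 for S100a4, 4 for S100a8 and 2 for S100a9. Windows without the motif were also low in other members, with 6 for S100a6, 3 for S100b and 2 and 4 for the windows of S100a16. The median over all windows was 7 CpG dinucleotides, so the shown windows fell on either side of it. A match or a count of CpG describes these letters and says nothing here about which factor binds.

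Newborn heart RNA held S100 transcripts mainly from a few genes. Of the 10 members, 7 reached 1 TPM in both libraries and are called read there, and 28.4% of 21461 nuclear protein-coding genes passed the same rule. S100a4 was read in replicate 1 only, S100a9 in replicate 2 only, and S100b in neither. The members together made 1832 TPM in replicate 1 against 1842 TPM in replicate 2, a mean of 0.184% of mouse TPM, so the sums were nearly equal. S100a1 and S100a11 alone gave 77.9% of that sum in replicate 1 and 66.2% in replicate 2. They were first and second in both libraries, and the order below them changed between the libraries. By mean TPM it ran S100a10, S100a13, S100a6, S100a8, S100a9, S100a16, S100a4 and S100b.

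**Figure D1:**
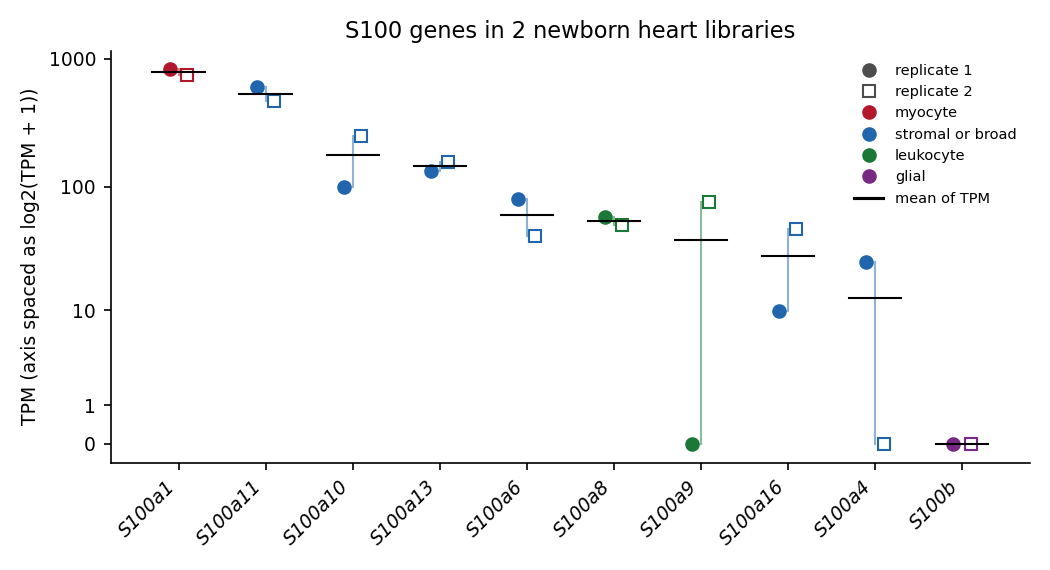
TPM of each of the 10 S100 genes, ordered by mean, with replicate 1 as a filled circle, replicate 2 as an open square and the mean as a bar, on an axis spaced as log2(TPM + 1). S100a1 sits at 828 and 747 TPM and S100a11 at 599 and 473 TPM, while S100a9 and S100a4 each have 1 library at 0 and S100b has both.

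S100a1, the myocyte member, was the most abundant S100 gene. It stood at 828 TPM in replicate 1 against 747 TPM in replicate 2 (788 ± 57.4 TPM), from 15447 and 11814 expected counts, estimates of reads that need not be whole. Both libraries were thus close together, 1.11-fold higher in replicate 1, and the gene ranked 154th and 159th among 21461 nuclear protein-coding genes. Of 278 genes with a mean TPM within 2-fold of its own, 11.5% differed over 2-fold between the libraries.

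Genes for proteins that S100A1 binds or acts beside in muscle were read widely, 8 of 9 in both libraries, against 28.4% of nuclear protein-coding genes. Pln, the brake on the calcium pump of the sarcoplasmic reticulum, had 1538 and 1971 TPM, and Myh6, the alpha myosin heavy chain, 2556 and 3893 TPM. The ATP synthase subunits Atp5b and Atp5a1 had 4743 and 8540 TPM and 2469 and 3308 TPM. Titin, Ttn, whose spring region S100A1 binds, had 147 TPM in replicate 1 against 649 TPM in replicate 2. It was the 1 gene of the 8 over 2-fold apart, against 54.6% of all mouse genes averaging 5 TPM or more. That share was lower among abundant genes, 11.5% at the level of S100a1. Only Fkbp1b, which encodes a protein of the ryanodine receptor complex, had 0 counts in both libraries. Picked out with their values in view, the calcium pump gene Atp2a2 had 315 and 457 TPM and the release channel gene Ryr2 29.8 and 43.3 TPM. The 6 cardiomyocyte markers were all read in both libraries and summed to 38275 TPM in replicate 1 against 52100 TPM in replicate 2. S100a1 was slightly higher in the library where that sum was lower, and the part the markers play in its level was not tested. In RNA of a whole tissue, fewer cells of a type and less RNA per cell cannot be told apart.

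S100a11, which binds annexin A1 and is made by many cell types, followed S100a1. It had 599 TPM in replicate 1 against 473 TPM in replicate 2 (536 ± 88.8 TPM), from 7969 and 5343 expected counts. S100a1 over S100a11 was 0.56 ± 0.13 on the log2(TPM + 1) scale, a 1.48-fold excess with 1 sign in both libraries and a mean beyond 2 SD. That was the only one of the 9 steps between neighbours in the order of TPM to pass this rule. In counts per 1000000, which ignore length, 2 steps passed it, S100a6 over S100a8 being the other.

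S100a10, the partner of annexin A2, differed more between the libraries. It stood at 99.97 TPM in replicate 1 against 252 TPM in replicate 2 (176 ± 108 TPM), 2.51-fold higher in replicate 2 on the TPM + 1 scale. Of 988 genes of like level, 25.4% differed over 2-fold and 13.8% lay as far apart as S100a10 or farther. Its place among nuclear protein-coding genes was 1158th in replicate 1 and 492nd in replicate 2. Anxa2, whose product S100A10 binds to form a membrane-linking tetramer, had 380 and 437 TPM and so was the higher of the 2 in both libraries. S100a10 over Anxa2 was -1.92 in replicate 1 and -0.79 in replicate 2 on the log2 scale, a mean that did not exceed 2 SD.

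S100a13, which takes part in the release of FGF1 from cells, differed little between the libraries. It had 133 TPM in replicate 1 against 157 TPM in replicate 2 (145 ± 17.1 TPM). S100a6, also called calcyclin, had 79.6 and 41.0 TPM (60.3 ± 27.3 TPM), 1.92-fold higher in replicate 1 and so just inside the limit of 2-fold used here. With TMM factors or DESeq2 size factors, which moved all log2 ratios up by 0.0728 and 0.1066, its log2 ratio of 0.94 became 1.01 and 1.05 and passed that limit. Fgf1 itself, picked out with its values in view, had 3.22 TPM in replicate 1 against 25.8 TPM in replicate 2.

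By mean TPM, S100a16 and S100a4 were the least abundant of the widely made members, and both were uneven. In replicate 2 alone, S100a6 at 41.0 TPM lay below S100a16. S100a16, a broadly expressed member linked to fat cell formation, had 9.92 TPM in replicate 1 against 46.5 TPM in replicate 2 (28.2 ± 25.8 TPM), from 328 and 1275 expected counts. Of 3394 genes of like level, 52.5% also differed over 2-fold. S100a4, which binds non-muscle myosin and is often used as a fibroblast marker, had 25.2 TPM from 325 expected counts in replicate 1 against 0 counts in replicate 2. Set against a floor of 3 counts in replicate 2, its share of reads was at least 89.4-fold higher in replicate 1, by counting error alone. Of 3917 genes of like mean, 32.9% had under 3 counts in 1 library and 11.2% lay as far apart as S100a4 or farther. The mean used for this match includes the 0 of replicate 2, and the cause of that 0 was not tested. The 9 fibroblast markers were all read in both libraries, Col3a1 at 323 and 266 TPM and Postn at 254 and 291 TPM, and summed to 1273 and 1025 TPM. Tcf21 was the farthest apart of them, at 16.6 and 3.45 TPM, and 2 of the 9 differed over 2-fold, both higher in replicate 1. Over all mouse genes averaging 5 TPM or more, 54.6% differed over 2-fold and 26.9% were higher in replicate 1. The 9 markers were thus present in the library with no S100a4 count, some of them at a lower level. Myh9, the non-muscle myosin heavy chain that S100A4 binds, had 11.3 and 13.2 TPM and was likewise picked out with its values in view. Of 6 epicardial and mesothelial markers, 2 were read in both libraries, against 28.4% of nuclear protein-coding genes, and Wt1 and Krt8 were at 0 in both. The list summed to 128 TPM in replicate 1 and 13.7 TPM in replicate 2. Msln (79.0 and 8.26 TPM), Krt19 (24.4 and 0 TPM) and Upk3b (23.7 and 0 TPM) were lower in replicate 2, and Lrrn4 (1.36 and 5.47 TPM) was higher. Of the widely made members, S100a4, S100a6 and S100a11 were lower in replicate 2, and S100a10, S100a13 and S100a16 were higher. All 6 endothelial markers (593 and 415 TPM in sum) and all 6 smooth muscle and pericyte markers (1057 and 1614 TPM) were read in both. The part of these cell types in the levels of the widely made members was not tested.

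The calprotectin pair came apart. S100a8 had 57.3 TPM in replicate 1 against 49.6 TPM in replicate 2 (53.4 ± 5.44 TPM), from 542 and 398 expected counts. S100a9 had 0 counts in replicate 1 and 75.3 TPM from 852 expected counts in replicate 2. Against the floor of 3 counts in replicate 1, its share of reads was at least 344-fold higher in replicate 2, by counting error alone. The TPM ratio of S100a8 to S100a9 therefore could not be given for replicate 1, and in replicate 2 S100a8 over S100a9 was -0.59 on the log2(TPM + 1) scale, S100a9 being the higher. Of 3020 genes with a mean like that of S100a9, 6.85% had under 3 counts in 1 library and 0.695% lay as far apart as S100a9 or farther. S100a8, by contrast, was among the steadier genes of its level, where 87.6% of 2482 genes lay as far apart or farther.

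Few other neutrophil genes were read. None of 14 neutrophil markers was read in both libraries, against 28.4% of nuclear protein-coding genes. Of the 14, 10 had 0 counts in both, among them Ngp, Camp, Lcn2, Mpo, Elane, Cxcr2 and Mmp9. The list summed to 26.3 TPM in replicate 1 against 12.4 TPM in replicate 2, below S100a8 alone. Retnlg (15.4 and 0 TPM) and Csf3r (10.9 and 0 TPM), the receptor for granulocyte colony-stimulating factor, were read in replicate 1 only, and Mmp8 (0 and 12.4 TPM) in replicate 2 only. The library with S100a9 counts was the one with Mmp8 and without Retnlg and Csf3r. Of 10 macrophage markers, 3 were read in both libraries, again against 28.4% of nuclear protein-coding genes. The macrophage list summed to 166 and 118 TPM with Lyz2, encoding lysozyme, at 81.3 and 43.3 TPM and Cd68, Mrc1, Cd14 and C1qc at 0. The part of either cell type in the levels of S100a8 and S100a9 was not tested.

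S100b had 0 expected counts in both libraries. A count of 0 allows up to 3 counts, which is 0.0671 TPM in replicate 1 against 0.0791 TPM in replicate 2. Against that floor S100a1 was at least 12343-fold higher in replicate 1 and at least 9444-fold higher in replicate 2. Both bounds cover the sampling of reads only and not RNA lost before sequencing, which was not tested. They therefore set no limit on the S100b RNA in the hearts. For S100a9, 0 counts in replicate 1 stood beside 852 expected counts in replicate 2, and S100a4 had 325 and 0. Of 10 Schwann cell and neural markers, 4 were read in replicate 1 and 2 in replicate 2, and the list summed to 142 and 90.5 TPM. Ncam1, a cell adhesion gene, was the 1 read in both libraries, at 131 and 76.3 TPM. Cdh19 had 7.53 and 0 TPM, Fabp7 0.438 and 13.8 TPM and Mbp 1.74 and 0.0204 TPM, while Sox10 and Th had 0 counts in both.

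Between the libraries the members were about as uneven as other genes, and the 4 uneven ones were S100a10 and the 3 with the lowest means above 0. Of the 9 members averaging 5 TPM or more, 4 differed over 2-fold on the log2(TPM + 1) scale, while 54.6% of 8266 mouse genes did so. S100a4 was over 2-fold higher in replicate 1, as were 26.9% of all genes, and S100a9, S100a10 and S100a16 were over 2-fold higher in replicate 2, as were 27.7%. A count under 3 in 1 library was found for 2 of the 9, against 20.1% of all genes. The median log2 ratio of replicate 1 over replicate 2 was 0.15 over the 9 members and -0.01 over all 8266 genes, and the median size of the ratio was 0.94 and 1.17.

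**Figure D2:**
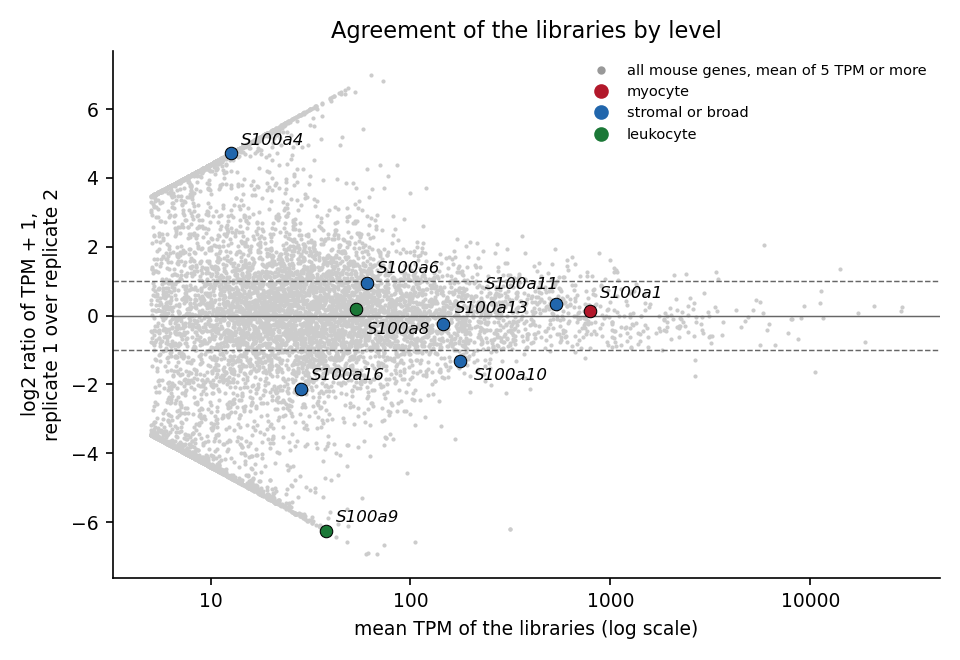
Log2 ratio of TPM + 1, replicate 1 over replicate 2, against mean TPM on a log axis, for 8266 mouse genes in grey and the 9 S100 genes averaging 5 TPM or more in colour, with dashed lines at 2-fold. S100a1 and S100a11 lie in the narrow right of the cloud, and S100a4 and S100a9 on the edges formed by genes at 0 in 1 library.

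Levels did not follow position along chromosome 3. In the stretch from S100a1 to S100a9, 5 of the 12 protein-coding genes were read in both libraries, against 28.4% of nuclear protein-coding genes. In at least 1 library 7 were read, all of them members and so chosen beforehand. The 5 that were not read, S100a14, S100a3, S100a2, S100a5 and S100a7a, lay between read genes and had 0 counts in both libraries. The head-to-head genes S100a1 and S100a13 share the promoter stretch printed above, and S100a1 was the higher by 2.63 in replicate 1 and 2.24 in replicate 2 on the log2 scale, 5.42-fold by the mean. S100a13 over S100a16, the next read gene along the chromosome, was 3.61 in replicate 1 and 1.73 in replicate 2, beyond 2 SD in TPM but within 2 SD in counts per 1000000 and with a pseudocount of 0.1. S100a8 and S100a9, whose windows both hold TATAAA, also lie next to each other, on opposite strands, and had the unlike values given above.

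**Figure D3:**
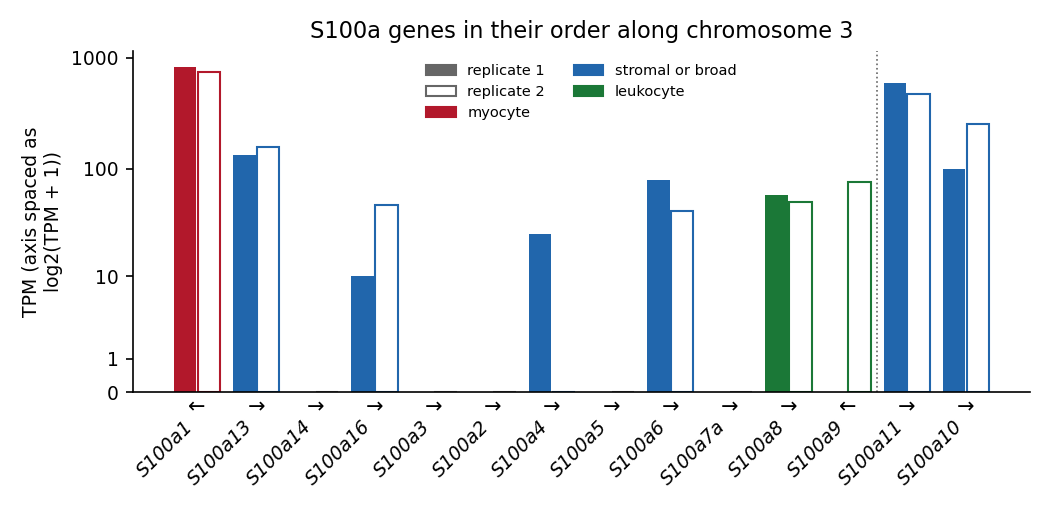
TPM of the S100a genes of chromosome 3 in their order along it, replicate 1 filled and replicate 2 open, on an axis spaced as log2(TPM + 1), with arrows for the strand and a dotted line where 2825 kb are left out. Genes with 0 counts, such as S100a3 and S100a5, stand between read genes such as S100a16 and S100a6.

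The classes of members were compared within each library. The 6 stromal or broad members summed to 946 TPM in replicate 1 against 970 TPM in replicate 2, the myocyte member S100a1 to 828 and 747 TPM and the 2 leukocyte members to 57.3 and 125 TPM. S100a1 thus gave 45.2% and 40.6% of all S100 TPM, the stromal or broad class 51.7% and 52.7%, and the leukocyte class 3.13% and 6.78%. Stromal or broad over leukocyte members was 3.49 ± 0.76 on the log2 scale and myocyte over leukocyte members 3.20 ± 0.89, both beyond 2 SD with 1 sign in both libraries. Myocyte over stromal or broad members was -0.28 ± 0.13, also beyond 2 SD in TPM, but -0.09 ± 0.22 in counts per 1000000 and then within it. A lead of the stromal or broad class over S100a1 thus held per transcript length and not per read.

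Of 10 pairs of single genes, 5 were beyond 2 SD in TPM, S100a1 over S100b being 1 of them, and 6 in counts per 1000000. S100a6 over S100a11 was -2.90 in replicate 1 and -3.50 in replicate 2, so S100a6 was the lower in both libraries and in both units. S100a11 over Anxa1, the gene of its annexin partner, was 2.35 and 3.48, beyond 2 SD in TPM and within it in counts per 1000000. S100a6 over Cacybp, whose product is the calcyclin-binding protein, was -0.26 and -1.54 and within 2 SD. S100a4 over S100a6 was -1.62 and -5.39, the second of these resting on the 0 counts of S100a4. S100a10 over S100a11 was -2.57 and -0.90 and also within 2 SD. In counts per 1000000, S100a10 over Anxa2 (-2.53 ± 0.77), S100a6 over Cacybp (-2.32 ± 1.12) and S100a4 over S100a6 (-3.32 ± 1.64) were beyond 2 SD, with the same sign as in TPM, and the last of these again rests on the pseudocount, since S100a4 had 0 counts in replicate 2. The value for S100a1 over S100b depends on the pseudocount, and its bound is given above instead.

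**Figure D4:**
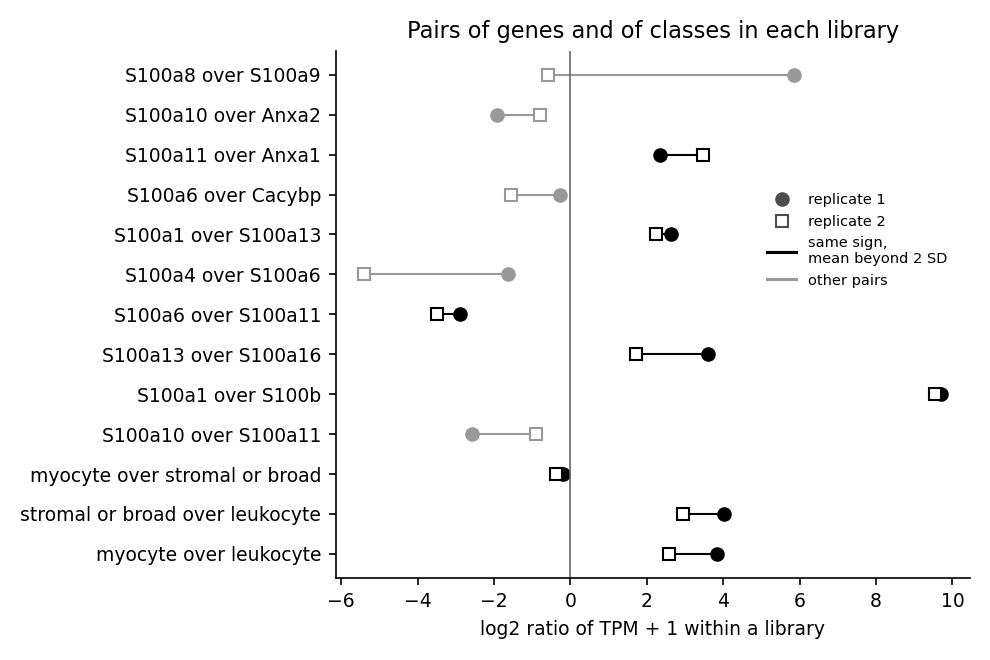
Log2 ratio of TPM + 1 within a library for 10 pairs of genes and 3 pairs of classes, replicate 1 as a filled circle and replicate 2 as an open square, in black where the sign was the same in both libraries and the mean beyond 2 SD. S100a8 over S100a9 lies on opposite sides of 0 in the libraries, at 5.86 and -0.59, and values with a gene at 0 depend on the pseudocount.

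Annexins, the calcium-dependent membrane proteins that several S100 dimers bind, were read for 8 of 12 genes in both libraries, against 28.4% of nuclear protein-coding genes. By mean TPM Anxa2 led, followed by Anxa5 at 178 and 305 TPM, Anxa6 at 208 and 108 TPM and Anxa1 at 117 and 41.4 TPM. Of the 8 averaging 5 TPM or more, 4 differed over 2-fold, all higher in replicate 1, while over all genes 54.6% differed and 26.9% were higher there. Anxa11 was the farthest apart, at 33.6 and 8.64 TPM. The median log2 ratio over these 8 was 1.13, against -0.01 over all genes. The partners of S100a11 and S100a10 did not move alike, since Anxa1 was 2.78-fold higher in replicate 1 and Anxa2 1.15-fold higher in replicate 2.

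Receptors for secreted S100 proteins were read for 2 of 8 genes in both libraries, against 28.4% of all nuclear protein-coding genes. Bsg, which encodes basigin, a receptor of S100A9, had 974 and 1006 TPM, and Cd36, a fatty acid transporter that binds calprotectin, 625 and 370 TPM. Ager, the receptor for advanced glycation end products, had 5.26 TPM in replicate 1 against 0 counts in replicate 2, Alcam 0 and 3.05 TPM, and Tlr4, Cd69 and Il10ra 0 counts in both. Of 21 genes for other binding partners, 15 were read in both libraries, against the same 28.4%. Of the 16 averaging 5 TPM or more, 6 differed over 2-fold, 2 being the higher in replicate 1 and 4 in replicate 2. Over all genes these shares were 54.6%, 26.9% and 27.7%. Tpm1, a tropomyosin, had 7773 and 8363 TPM, Actb, cytoplasmic actin, 1794 and 1166 TPM, and Mdm2, which holds p53 in check, 0 and 23.4 TPM. Of 13 other small EF-hand genes, 10 were read in both libraries, again against 28.4%. Among the 10 was Myl6, a myosin light chain, at 667 and 546 TPM. Capns1, the small calpain subunit, had 42.4 TPM in replicate 1 against 0.634 TPM in replicate 2. S100a1 at 828 and 747 TPM thus stood above Myl6 in both libraries.

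Beyond the 10 members, few counts fell on genes with an S100 symbol. None of a list of 7 other such genes was read in both libraries, against 28.4% of nuclear protein-coding genes. Of the 7, 6 had 0 counts in both, as had S100a2, which the list leaves out. As for S100b, these 0 counts set no limit on the RNA in the hearts. The 1 with counts, S100pbp, which encodes a binding protein of S100P and not an S100 protein, had 0.0208 TPM in replicate 1 against 3.48 TPM in replicate 2. All 7 genes of the S100-fused list, best known from skin and hair, among them Tchh, Hrnr, Rptn and Crnn, had 0 counts in both, as did all 5 keratinocyte markers.

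Transcript shares were alike in both libraries for S100a1, S100a10 and S100a16, and pseudogene copies moved the level of S100a11 little. S100a1-201 took 99.5% of S100a1 in replicate 1 and 99.2% in replicate 2 in the deposited isoform percentages. S100a16-201 took 100% and 95.9% of S100a16, of 8 transcripts listed for it, and S100a10 used 1 of its 3 listed transcripts. For S100a6, S100a8, S100a11 and S100a13 only 1 transcript is listed, so their shares were fixed in advance. S100a4 and S100a9 had counts in 1 library only, so their shares could not be compared. By posterior mean the share of S100a16-201 was lower, 86.1% in replicate 1 and 90.2% in replicate 2. S100a11 has 5 processed pseudogenes with at least 90% identity, and adding the 2 with counts gave 613 TPM in replicate 1 against 479 TPM in replicate 2. Gm12854, the copy with 91.3 and 32.1 expected counts, is 99.0% identical over 297 bases, so its reads and those of S100a11 were split by estimation. S100a4 shares 302 exon bases with Gm42674, a gene on the same strand whose level was not analysed here, and S100b lies across from Dip2a without sharing exon bases.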

How the data were processed

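For each library the authors deposited a table of genes and a table of transcripts, with no pooled replicates. Per the file headers these hold expected counts, posterior means and SDs of the counts, and TPM, and the deposited transcript tables add each transcript's percent of its gene. Text notes deposited with the tables name mm10 and GENCODE M4, and the labels name a mirVana extraction and a Smart-seq protocol. Which aligner and quantifier were used is not given in the sources used here, nor is a strand rule for counting.

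TPM was rescaled to a sum of 1000000 for 43346 mouse genes, without spike-ins (2.40% of counts in replicate 1 and 1.27% in replicate 2) and rows under a bare number. Depth was 40648662 and 33173354 expected counts, of which 39671930 and 32751851 fell on mouse genes. The floor of 3 counts for a gene at 0 equals 0.0756 and 0.0916 counts per 1000000, by counting error only, since no molecular identifiers were counted. Effective lengths of these short genes are well below their lengths, which makes their TPM less certain. GENCODE M21, which uses the same assembly, gave names to 42462 of them.

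Ratios use log2(TPM + 1), which understates those of weak genes. A pair was called beyond 2 SD when both libraries had 1 sign and the mean exceeded 2 SD. With 2 libraries this is a description. Genes of like level are those with a mean TPM within 2-fold of a member's. The members, lists and pairs were chosen with earlier results of these data known. Named were the members, the genes of the pairs, up to 4 genes of each list with the highest mean and the one farthest apart, other genes with an S100 symbol at 1 TPM or more, and genes sharing exons with a member. Genes at 0 and those said to be picked out were named beside this rule. S100a7l2 was not found by name. The planned protein comparison was not run here. Pseudogene copies were found with blastn 2.17.0 at 90% identity over 50% of the length. Alternatives, all planned, covered expected counts per 1000000, posterior mean TPM, nuclear genes only, the pseudocount, low-value filters, TMM factors (edgeR 4.0.16), DESeq2 1.42.0 size factors on rounded expected counts, pseudogene copies and leaving out each replicate. Calculations used Python 3.11.15, numpy 2.4.6, pandas 2.3.3, matplotlib 3.10.9 and R 4.3.3.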

Additional observations from a re-analysis of the deposited data

How the results depend on the processing

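The summed level of the members, 0.184% of mouse TPM, became 0.0801% of reads in expected counts per 1000000, 0.181% with posterior mean TPM and 0.211% over nuclear genes only, each by the construction of its unit or total. Myocyte over stromal or broad members was -0.28 on the log2 scale of TPM and -0.09 in expected counts per 1000000, where it no longer exceeded 2 SD. S100a8 over S100a9 was -0.59 without replicate 1. Its value of 5.86 without replicate 2 and its mean of 2.64 are set by the pseudocount, since S100a9 had 0 counts in replicate 1, and the mean was 4.28 with a pseudocount of 0.1 and 1.42 in expected counts per 1000000. In the 45 comparisons of library ratios over 9 members and 5 alternatives, no direction changed, and 2 values, both of S100a6, passed the 2-fold limit. Both came from factors made on counts and added to the TPM ratio. No paired analysis was possible because there is only 1 group. Leaving out a replicate gave no value for ratios between libraries or for a spread. At these depths 32.9% of genes with a mean like that of S100a4 had under 3 counts in 1 library, and none of the genes with a mean like that of S100a1 did.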
